A study of Homo sapiens with 12 samples.

Results

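Solute carriers are membrane proteins that move nutrients, metabolites and ions across the plasma membrane and the membranes of organelles, and their gene names give the family number. They were followed here in the m1A maps of SNU-668, a human gastric cancer cell line, in an erastin-resistant form. N1-methyladenosine (m1A) is a methyl group on the base-pairing face of adenine in RNA, and ALKBH3 is a demethylase that can take it off. The members were chosen by gene name: every name that starts with SLC and a digit in any deposited peak list, without SLC7A11, SLC3A2, SLC11A2, SLC25A37 and SLC25A28. This gave 169 genes in 39 families, of 10226 genes that had a peak anywhere.

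The compared groups were erastin-resistant cells that received an shRNA against ALKBH3 (genotype ALKBH3 knockdown, 3 immunoprecipitated and 3 input libraries) and erastin-resistant cells that received the control shRNA shRNA-NC (genotype WT, 3 and 3). All 12 samples share the resistant state, which no sample without it was set against. Each of the 6 immunoprecipitated samples has 1 list of m1A peaks, positions where RNA fragments were enriched by an antibody against m1A. The inputs are seen only through these lists. Nothing in the labels says that replicates were separate cultures, so the spread between lists may be technical.

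A peak reports enrichment at a position, not the amount of a transcript. ALKBH3 itself had 1 peak, in knockdown replicate 1, with a log2 enrichment of 2.31, which does not measure the knockdown. The depth of the libraries is unknown. Knockdown replicates 1, 2 and 3 had 34691, 13056 and 8474 peaks and the control replicates 5015, 4894 and 15130. Of 6 epithelial markers, 4 had a peak in some list (KRT8, KRT18, KRT19 and EPCAM), while CDH1 and CLDN4 had none. Of 5 fibroblast markers, the collagens COL1A1 and COL1A2 had peaks, while COL3A1, DCN and LUM had none. None of 7 endothelial and leukocyte markers had one. Both erythroid markers, HBB and HBA1, had peaks in lists of both groups. The part of these genes in the results was not tested. Peak lists of bulk samples show neither the number of cells of a type nor the amount of RNA per cell.

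Many solute carriers work as exchangers, so that the uptake of one compound is paid for by the release of another. In cancer cells the SLC1, SLC7 and SLC38 families bring in glutamine and other amino acids. The SLC39 proteins raise zinc in the cytosol, the SLC30 proteins lower it by moving zinc out or into organelles, and the SLC25 proteins carry metabolites through the inner mitochondrial membrane. Erastin itself acts on a member of the SLC7 family, SLC7A11, which exports glutamate in exchange for cystine and is not among the genes described here.

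More solute carrier mRNAs had a peak in the knockdown lists than in the control lists, but the lists of both groups overlapped. A peak was present on 117, 96 and 76 of the 169 genes in knockdown replicates 1, 2 and 3, against 49, 53 and 94 in the control replicates. The means were 96.3 ± 20.5 genes after knockdown and 65.3 ± 24.9 in the controls (SD, n = 3 each), a 1.52-fold difference in geometric mean (log2 ratio 0.60), with no test over the members. With the lists cut to equal length the log2 ratio was 0.13. That cut acts on every gene, and the ratio over all genes was not computed for it. Control replicate 3 lay above knockdown replicate 3 and close to knockdown replicate 2. Over the 10226 genes the same ratio was 1.66-fold (log2 ratio 0.73).

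The distance between solute carriers and other genes was widest in the longest list. In knockdown replicate 1, 69.2% of the solute carriers and 82.6% of all other genes had a peak. In knockdown replicates 2 and 3 the shares were 56.8% and 45.0% for solute carriers, against 58.7% and 43.7% for other genes. In control replicates 1, 2 and 3 solute carriers stood at 29.0%, 31.4% and 55.6% and other genes at 27.4%, 28.7% and 58.9%. Solute carriers made up 1.11%, 1.60% and 1.63% of the peaks of the knockdown lists and 1.71%, 2.13% and 1.62% of those of the control lists, so that knockdown replicate 3 and control replicate 3 were close to each other.

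**Figure D1:**
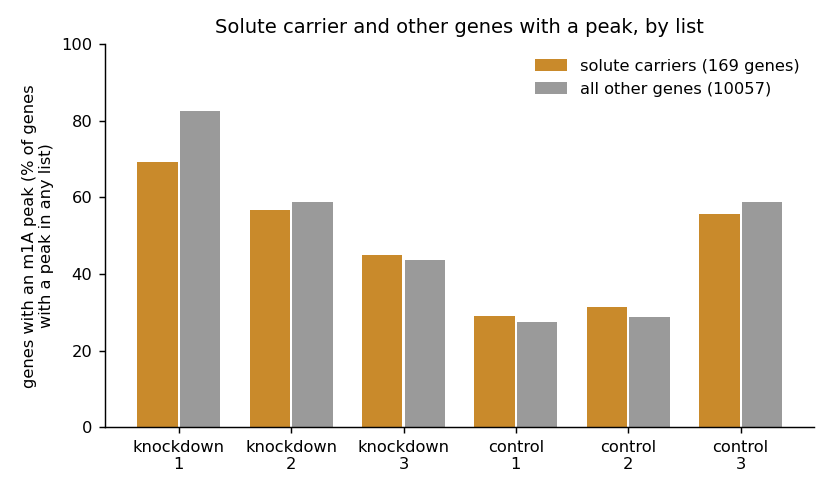
Share of genes with an m1A peak in each of the 6 lists, as percent of those with a peak anywhere, for the 169 solute carriers (ochre) and the 10057 other genes (grey). Each pair of bars is 1 list, knockdown left and control right. The widest gap is in knockdown replicate 1, at 69.2% against 82.6%, and control replicate 3 reaches 55.6% and 58.9%.

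A gene was called recurrent in a group when at least 2 more lists of that group than of the other held a peak on it. By this rule 22 of the 169 solute carriers (13.0%) were recurrent in the knockdown lists, where the share over all genes was 20.1%. In the control lists 2 were recurrent (1.18%), where the share over all genes was 1.76%. Of the 22 genes, 15 had a peak in 2 knockdown lists and no control list, 5 in 3 knockdown lists and 1 control list, and 2 in every knockdown list but no control list. In each of those 5 the control peak was in control replicate 3. Of the 22, 18 had a peak in knockdown replicate 1, 18 in replicate 2 and 15 in replicate 3. Leaving out 1 list changed these counts, and the shares over all genes were not counted for those settings. The 22 became 6 without knockdown replicate 1 or 2, 9 without knockdown replicate 3, and 35, 36 and 55 without control replicates 1, 2 and 3. The 2 recurrent in the control lists became 11, 5 and 8 without knockdown replicates 1, 2 and 3, and 0, 0 and 1 without the control replicates. With 2 lists left in a group, a gene must have a peak in both and in none of the other group to be recurrent in the shorter group.

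SLC8A1 and SLC22A18 had a peak in every knockdown list but no control list, which is 1.18% of the solute carriers where the share over all genes was 2.9%. SLC8A1, a sodium-calcium exchanger of the plasma membrane, had 1 peak per knockdown list. Their log2 enrichments were 3.98, 4.33 and 3.24, the authors' own value per peak, read here as the fold over input since the file headers do not name the sides. These peaks did not overlap. On chromosome 2 (hg19, minus strand) they lay in coding sequence at 40656315 to 40656489 in replicate 1 and 40657090 to 40657264 in replicate 3, and in the 3′ untranslated region (3′ UTR) at 40339835 to 40339934 in replicate 2. SLC22A18, a transporter of the organic ion family in an imprinted region of chromosome 11, had 1, 2 and 1 peaks in the knockdown lists, and its most enriched peaks had log2 enrichments of 2.40, 2.61 and 2.44. In replicates 2 and 3 they lay next to each other in coding sequence (2924669 to 2924693 and 2924619 to 2924668, plus strand), and in replicate 1 across the end of the coding sequence (2946308 to 2946476). The other peak of replicate 2 overlapped that of replicate 1, with a log2 enrichment of 2.33. The reverse pattern was found for 0 solute carriers, where the share over all genes was 0.0391%. With 1 list left out, the 2 genes became 6, 6 and 9 without knockdown replicates 1, 2 and 3 and 7 without control replicate 3. The reverse pattern was found for 1 gene without knockdown replicate 2 or control replicate 3. The shares over all genes were not counted with a list left out.

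Counting peaks instead of lists, SLC8A1, SLC22A18 and the zinc importer SLC39A6 had more peaks in every knockdown list than in any control list (1.78% of the solute carriers, against 4.81% of all genes). SLC39A6 had 2, 4 and 2 peaks after knockdown and 0, 0 and 1 in the control lists. For a single gene with 3 lists against 3 the two-sided exact permutation test cannot go below p = 0.1, the value each of these 3 genes had. No solute carrier had more peaks in every control list than in any knockdown list, where the share over all genes was 0.108%. Without 1 knockdown list the count of 3 became 8, 12 and 21 (replicates 1, 2 and 3 left out) and without control replicate 3 it was 13. A left-out list loosens the rule for every gene, and the shares over all genes were not counted there.

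List length was equalised by keeping the 4894 most enriched peaks of each list. Of the 157 solute carriers that then had a peak, 16 (10.2%) were recurrent in the knockdown lists, against 12.2% of all genes, and 16 in the control lists, against 11.1%. SLC8A1 kept a peak in every knockdown list but no control list, which was the case for 1.77% of all genes, and no solute carrier had the reverse pattern (0.734% of all genes). SLC22A18 was found in 1 more knockdown than control replicate. Among peaks with at least 4-fold enrichment 30 of 159 solute carriers (18.9%) were recurrent in the knockdown lists, against 20.9% of all genes, and 3 in the control lists, against 1.67%. There 3 genes had a peak in every knockdown list but no control list, against 2.94% of all genes, and 0 the reverse, against 0.0755%. With peaks counted per 1000 peaks of a list, 2 solute carriers were higher in every knockdown list, against 4.89% of all genes, and 1 was higher in every control list, against 2.43%.

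The families SLC1, SLC6, SLC7, SLC36, SLC38 and SLC43, grouped here as amino acid carriers by number, held 20 names, SLC7A6OS, no carrier, among them. A peak in every list of both groups was found for 5 of the 20, where the share over all genes was 7.55%. Of the 20, 13, 12 and 12 had a peak after knockdown and 7, 9 and 13 in the control lists. The mean shares were 61.7% and 48.3%, against 61.6% and 38.3% over all genes. Recurrent in the knockdown lists were 2 of the 20, SLC7A6 and SLC6A9, where the share over all genes was 20.1%, and none in the control lists, where it was 1.76%. The median difference was 0 lists, where it was 1 over all genes.

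SLC1A5, the plasma membrane exchanger that imports glutamine, had 3, 3 and 2 peaks after knockdown and 4, 3 and 10 in the control lists. Control replicate 3 held the most and the other lists overlapped. A peak across the end of its coding sequence on chromosome 19 (47278665 to 47278864, minus strand) was called with these same ends in knockdown replicates 2 and 3, with log2 enrichments of 2.60 and 1.33. Peaks in control replicate 1 (47278665 to 47278739, 1.25) and control replicate 2 (47278690 to 47278864, 1.66) overlapped it. In knockdown replicate 1 the most enriched peak ran from the 5′ UTR into coding sequence (47290970 to 47291819, log2 enrichment 1.84). Of the other SLC1 members, the glutamate transporters SLC1A1 and SLC1A3 and the neutral amino acid exchanger SLC1A4 had a peak in at most 1 list of each group. SLC1A3 had a log2 enrichment of 2.95 in knockdown replicate 3 and 5.19 in control replicate 2, both in the 3′ UTR.

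SLC7A5, the light chain of the LAT1 exchanger that takes up leucine and other large neutral amino acids, had 8, 6 and 5 peaks after knockdown and 2, 5 and 11 in the control lists. Its most enriched peaks had log2 enrichments of 1.99, 1.52 and 1.31 after knockdown and 1.80, 2.49 and 2.47 in the control lists. In control replicates 2 and 3 they shared a place in the 3′ UTR on chromosome 16 (87863679 to 87863928 and 87863654 to 87863928, minus strand) that no knockdown list had. SLC7A1, an importer of arginine and lysine, had 10, 0 and 0 peaks after knockdown and 0, 2 and 1 in the control lists. SLC7A6, which exchanges arginine for neutral amino acids, had 1 peak per knockdown list, at log2 enrichments of 2.85, 3.75 and 3.01, and 2 peaks in control replicate 3, at 3.73 and 2.85. All lay in the 3′ UTR on chromosome 16 (plus strand) between 68331603 and 68335722. The peaks of knockdown replicate 3 and control replicate 3 shared a start at 68334528, and the others lay apart. Its neighbour SLC7A6OS, by its name on the opposite strand and no carrier, had 1, 0 and 1 peaks after knockdown and 0, 0 and 3 in the control lists. How strand was used in peak calling is not given in the sources used here.

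SLC38A2, a sodium-coupled importer of glutamine and alanine that cells raise when amino acids run low, had the most peaks of the solute carriers present in all 6 lists. It had 5, 9 and 3 peaks after knockdown and 10, 2 and 11 in the control lists. A peak whose lower coordinate was 46751972 on chromosome 12 (minus strand, 3′ UTR) was called in all but control replicate 1. The log2 enrichments there were 3.25, 2.08 and 1.57 in the knockdown replicates, and 2.19 and 2.18 in control replicates 2 and 3. SLC38A1, another glutamine importer, had 6, 3 and 2 peaks after knockdown and 1, 5 and 8 in the control lists, with most enriched peaks of 2.46, 2.28 and 2.37 after knockdown and 1.53, 3.30 and 3.74 in the control lists. Between 46576871 and 46577695 on chromosome 12, in its 3′ UTR, 3 knockdown and 2 control lists had a peak. SLC38A9, the lysosomal arginine sensor upstream of mTORC1, had 0, 2 and 1 peaks after knockdown and 0, 1 and 3 in the control lists, with the most enriched between 3.77 and 4.36. SLC6A6, the taurine transporter, had a peak in every list, with log2 enrichments of 4.12, 2.86 and 4.28 after knockdown and 2.28, 2.94 and 2.25 in the control lists, at different places in all but 2 of them.

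**Figure D2:**
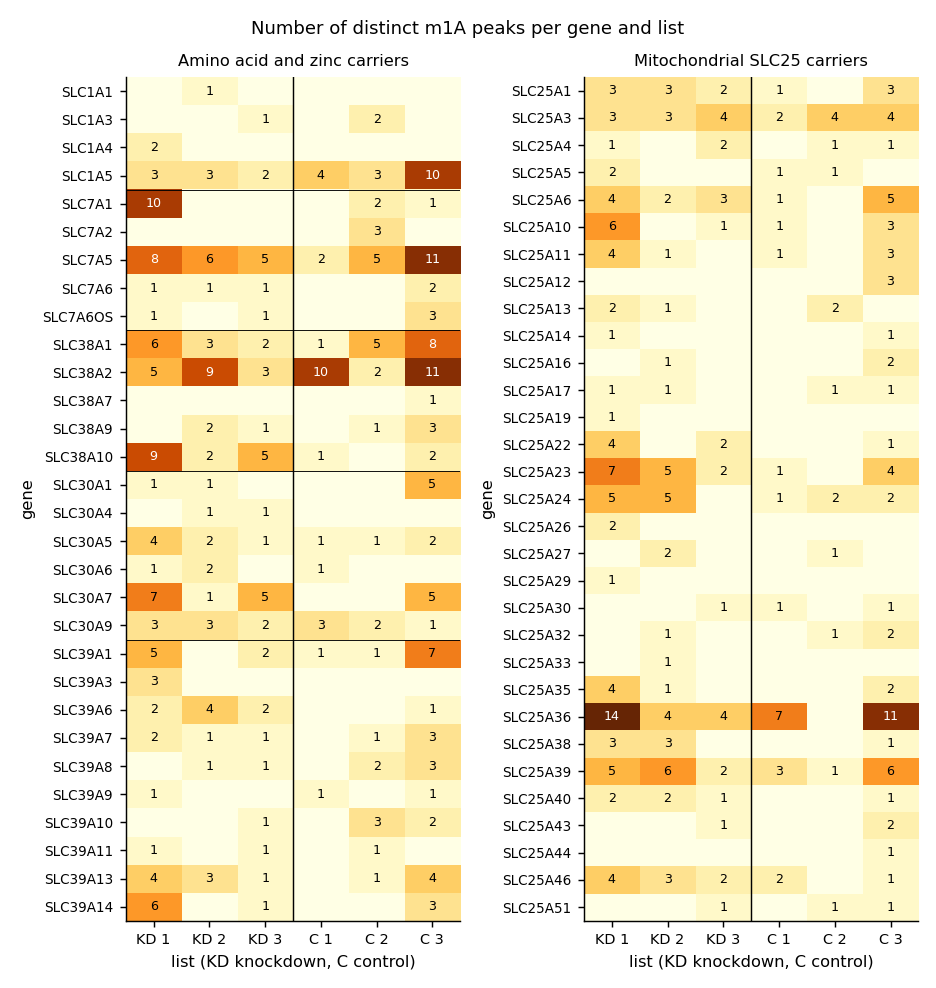
Number of distinct m1A peaks per gene (rows) and list (columns, knockdown left of the line and control right). The left panel holds the families SLC1, SLC7, SLC38, SLC30 and SLC39, named there amino acid and zinc carriers, with SLC7A6OS, no carrier, among them. The right panel holds the mitochondrial SLC25 carriers. Empty cells are 0 and the colour is capped at 12 peaks. SLC25A36 reaches 14 peaks in knockdown replicate 1, and SLC38A2 and SLC7A5 have peaks in all 6 lists.

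Zinc carriers had peaks on most members in the knockdown lists, with control replicate 3 at the same level. Of 16 members, 13, 10 and 12 had a peak after knockdown and 5, 8 and 12 in the control lists. The mean shares were 72.9% and 52.1%, against 61.6% and 38.3% over all genes. Recurrent in the knockdown lists were 3 of 16 (18.8%), near the 20.1% over all genes, and none was recurrent in the control lists. They were SLC30A4, SLC30A7 and SLC39A6.

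SLC30A7 loads zinc into the Golgi and had 7, 1 and 5 peaks after knockdown and 0, 0 and 5 in the control lists. Its most enriched peaks had log2 enrichments of 5.21, 3.41 and 2.71 after knockdown and 4.44 in control replicate 3, all in the 3′ UTR on chromosome 1 between 101443684 and 101447258 (plus strand). In knockdown replicate 1 this was the most enriched peak of any solute carrier. SLC30A4, an exporter of zinc into vesicles, had 1 peak each in knockdown replicates 2 and 3, with log2 enrichments of 4.78 and 3.58, and none in the other lists. The 2 peaks lay apart in a 3′ UTR on chromosome 15. SLC39A6 imports zinc and had log2 enrichments of 2.75, 3.51 and 3.37 after knockdown and 1.74 in control replicate 3. In knockdown replicates 2 and 3 its peaks overlapped in the 3′ UTR on chromosome 18 (33688495 to 33688669 and 33688495 to 33688519, minus strand).

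SLC30A5 and SLC30A9 had a peak in every list. SLC30A5, which moves zinc into the early secretory pathway, had log2 enrichments of 3.55, 2.79 and 3.43 after knockdown and 1.92, 2.22 and 4.03 in the control lists. In knockdown replicates 1 and 3 the peaks lay at the start of the transcript on chromosome 5, at 68390073 to 68390097 (5′ UTR and coding sequence) and 68389973 to 68390047 (5′ UTR). SLC30A9, a mitochondrial zinc exporter, had 2.04, 2.46 and 2.28 after knockdown and 1.65, 2.98 and 1.59 in the control lists. SLC30A1, the zinc exporter of the plasma membrane, had 1, 1 and 0 peaks after knockdown and 0, 0 and 5 in the control lists, all of the most enriched in the 3′ UTR. SLC39A8 and SLC39A14, importers of zinc, manganese and iron, had peaks in as many or nearly as many lists of each group. SLC39A8 had 0, 1 and 1 peaks after knockdown and 0, 2 and 3 in the control lists, and SLC39A14 had 6, 0 and 1 after knockdown and 0, 0 and 3 in the control lists. SLC39A10, another zinc importer, had 0, 0 and 1 peaks in the knockdown lists, with a log2 enrichment of 3.32, and 0, 3 and 2 in the control lists, with 5.27 and 3.97.

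Mitochondrial SLC25 carriers, the largest family with 31 members, had a peak on 22, 18 and 14 members after knockdown and on 12, 10 and 24 in the control lists. Control replicate 3 was the highest of the 6. As mean shares this is 58.1% ± 12.9 after knockdown and 49.5% ± 24.4 in the controls (SD, n = 3 each). Over all genes the mean shares were 61.6% ± 19.5 and 38.3% ± 17.8. Of the 31, SLC25A40 alone was recurrent in the knockdown lists (3.23%, where the share over all genes was 20.1%) and none in the control lists. More knockdown lists than control lists held a peak for 14 members, fewer for 7, and as many for 10. Over all genes it was more for 61.0% and fewer for 12.3%.

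SLC25A40 and its close relative SLC25A39 belong to a pair of carriers linked to glutathione import into mitochondria. SLC25A40 had 2, 2 and 1 peaks in the knockdown lists, with most enriched values of 2.79, 2.39 and 4.89, and 0, 0 and 1 in the control lists, with 3.71. At equal list length it was present in as many knockdown as control lists. SLC25A39 had a peak in every list, 5, 6 and 2 after knockdown and 3, 1 and 6 in the control lists. Its most enriched peaks in knockdown replicates 1 and 2 overlapped in the 5′ UTR on chromosome 17 (42401102 to 42401276 and 42401077 to 42401126, minus strand), with log2 enrichments of 2.67 and 2.61, and no other list had a peak there. Between 42397747 and 42398926, mainly coding sequence, all 6 lists had a peak. There the log2 enrichments were 1.76, 1.51 and 1.49 after knockdown and 1.22, 1.48 and 1.68 in the control lists.

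SLC25A3, the phosphate carrier that feeds ATP synthase, had 3, 3 and 4 peaks after knockdown and 2, 4 and 4 in the control lists. A stretch from coding sequence into the 3′ UTR on chromosome 12 (98992310 to 98995488, plus strand) held a peak in all 6 lists, with log2 enrichments of 1.45, 2.08 and 1.01 after knockdown and 1.46, 1.62 and 1.57 in the control lists. SLC25A5 and SLC25A6 encode ADP/ATP carriers whose mRNAs are near copies of each other, so reads may be split between them. SLC25A6 had 4, 2 and 3 peaks after knockdown and 1, 0 and 5 in the control lists, with most enriched values of 1.50, 1.08 and 0.87 after knockdown and 0.86 and 0.89 in control replicates 1 and 3. SLC25A5 had 2, 0 and 0 after knockdown and 1, 1 and 0 in the control lists. SLC25A13, the aspartate-glutamate carrier citrin, had 2, 1 and 0 after knockdown and 0, 2 and 0 in the control lists. SLC25A36, a pyrimidine nucleotide carrier, was picked out after its values were seen because it and SLC38A2 had the most peaks of the solute carriers, 40 each over the 6 lists: 14, 4 and 4 after knockdown and 7, 0 and 11 in the control lists.

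**Figure D3:**
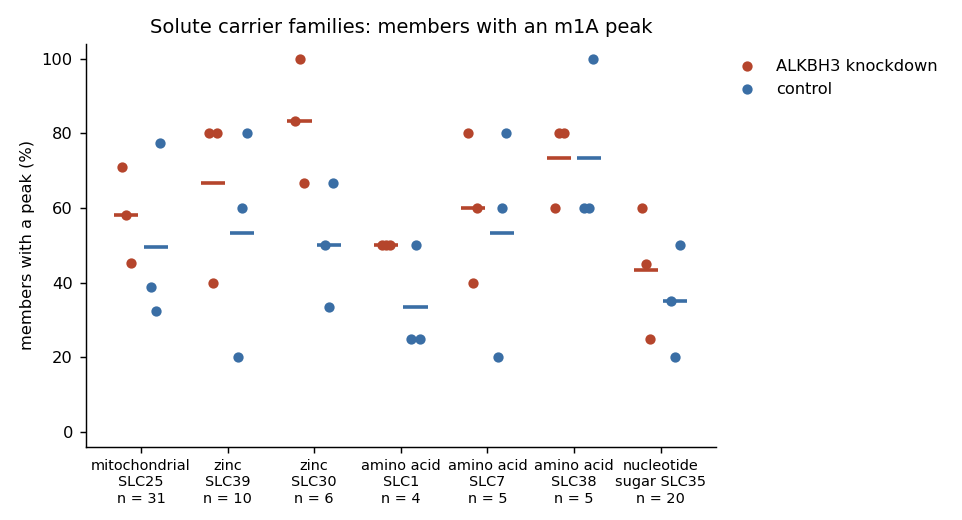
Share of the members of 7 solute carrier families with an m1A peak in each list, in percent of the members with a peak in any list (n under each name). Points are single lists, bars the means of 3 lists, knockdown (red) left and control (blue) right. The groups overlap in each of these families except SLC1 and SLC30, where the lowest knockdown list and the highest control list are level. SLC25 has means of 58.1% and 49.5%, where those over all genes were 61.6% and 38.3%.

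Outside the SLC25, SLC39, SLC30, SLC1, SLC7 and SLC38 families 17 of 108 members (15.7%, where the share over all genes was 20.1%) were recurrent in the knockdown group, SLC6A9 among them. In the control lists 2 were recurrent, where the share over all genes was 1.76%. The monocarboxylate carriers of the SLC16 family, which export lactate or move thyroid hormones and other acids, had 4, 5 and 5 of 8 members with a peak after knockdown and 3, 2 and 3 in the control lists. The mean shares were 58.3% and 33.3%, against 61.6% and 38.3% over all genes. SLC16A7, a lactate and pyruvate importer, was recurrent, with log2 enrichments of 5.61 in the 3′ UTR (knockdown replicate 2) and 4.76 in coding sequence (knockdown replicate 3). SLC16A1, a lactate carrier, had 3, 3 and 2 peaks after knockdown and 0, 3 and 5 in the control lists. SLC12A2, the sodium-potassium-chloride cotransporter, had a peak in knockdown replicates 1 and 3 and in control replicate 2, with log2 enrichments of 3.57 and 4.26 after knockdown and 3.56 in the control list.

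Of the organic ion family SLC22, names without a peak in any list are not counted. The family is in the set through knockdown peaks alone. Its 4 names, SLC22A5 (the carnitine importer), SLC22A15, SLC22A18 and SLC22A18AS, had a peak for 2, 4 and 2 after knockdown and for none in the control lists, 9 peaks in all. No control peak was found for 31.4% of the solute carriers and 29.7% of all genes, and the same held for all members of SLC14 and SLC18, each recurrent in the knockdown lists, and of SLC3, SLC17, SLC33, SLC36, SLC46 and SLC52. With 4 genes and few peaks, and with SLC22A18AS antisense to SLC22A18, this is a description of these lists that was not tested. SLC22A15 had log2 enrichments of 4.82 and 6.14 in knockdown replicates 2 and 3, at 2 places of its 3′ UTR on chromosome 1. Also recurrent were SLC2A12, a glucose transporter (4.75 and 4.29 in knockdown replicates 1 and 2), SLC18A2, the vesicular monoamine transporter (4.58 and 3.65 in knockdown replicates 2 and 3), SLC18B1, a polyamine transporter of vesicles (3.45 and 3.68 in knockdown replicates 1 and 3), and SLC20A2, a phosphate importer (2.99 and 3.79 in knockdown replicates 1 and 2). The peaks of SLC18B1 lay near each other in the 3′ UTR on chromosome 6 (133091259 to 133091283 and 133091334 to 133091358, minus strand).

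The other recurrent genes of these families had the following log2 enrichments. In knockdown replicates 1 and 2 the sodium-coupled glucose carrier SLC5A2 had 2.34 and 3.17, the urea transporter SLC14A1 2.21 and 2.97, the anion exchanger SLC4A3 3.00 and 3.01, SLC12A9 2.98 and 3.15, SLC16A4 3.27 and 2.04, and SLC22A5 2.46 and 2.23. SLC5A2 had further peaks in knockdown replicate 3 (1.96) and control replicate 3 (2.59). In knockdown replicates 1 and 3 the potassium-chloride cotransporter SLC12A4 had 2.55 and 2.54, the fatty acid transporter SLC27A1 2.90 and 2.78, and the glycine transporter SLC6A9 2.69 and 1.67. The single most enriched peak of any solute carrier was on SLC2A13, a myo-inositol transporter, at 7.54 in the 3′ UTR in knockdown replicate 2, and this gene had no other peak. The nucleotide sugar carriers of the Golgi and their relatives, SLC35, had 12, 9 and 5 of 20 members with a peak after knockdown and 7, 4 and 10 in the control lists. The mean shares were 43.3% and 35.0%, against 61.6% and 38.3% over all genes. None was recurrent in either group, where the shares over all genes were 20.1% and 1.76%.

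The 2 genes recurrent in the control lists were SLC29A1 and SLC15A4. SLC29A1, the nucleoside transporter ENT1, had 0, 1 and 0 peaks in the knockdown lists, with a log2 enrichment of 2.35, and 1, 2 and 1 in the control lists, with 1.77, 2.69 and 2.10. The peak of knockdown replicate 2 and that of control replicate 2 overlapped on chromosome 6 (44201281 to 44201430 in the 3′ UTR, and 44201231 to 44201405 across the end of the coding sequence, plus strand). SLC15A4, a lysosomal carrier of histidine and peptides, had no peak after knockdown and 1, 2 and 0 in the control lists, with 3.18 in coding sequence and 3.66 in the 3′ UTR on chromosome 12. SLC29A1 was not recurrent among peaks with at least 4-fold enrichment. SLC40A1, the iron exporter ferroportin, had no peak in any list.

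A peak in all 6 lists was found for 14 solute carriers (8.28%), where the share over all genes was 7.55%, and in 1 list only for 47 (27.8%), where it was 21.5%. Of those 47, 18 had the peak in knockdown replicate 1, 17 in knockdown replicate 2 and 8 in control replicate 3. The genes in all lists supply glucose (SLC2A1), glutamine and other amino acids (SLC1A5, SLC7A5, SLC38A1, SLC38A2, SLC6A6), phosphate to mitochondria (SLC25A3), copper (SLC31A1), and choline (SLC44A2), move zinc across organelle membranes (SLC30A5, SLC30A9), or export lactate (SLC16A3). SLC25A39 and SLC2A4RG complete the set. SLC2A4RG is a transcription factor that regulates a glucose transporter gene and no carrier itself, like the scaffold proteins SLC9A3R1 and SLC9A3R2, the antisense gene SLC22A18AS, and SLC7A6OS and SLC4A1AP.

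SLC2A1, the main glucose importer of many tumour cells, had 8, 2 and 1 peaks after knockdown and 1, 1 and 2 in the control lists. Its most enriched peaks had 1.86, 1.85 and 1.49 after knockdown and 1.25, 1.22 and 1.05 in the control lists. In knockdown replicates 1 and 2 they overlapped on chromosome 1 and crossed an intron from coding sequence to the 5′ UTR (43417361 to 43424488 and 43417361 to 43424413, minus strand), and no control list had a peak there. SLC31A1, the copper importer, had its most enriched peaks at 3.82, 4.16 and 1.75 after knockdown and 1.85, 2.99 and 4.93 in the control lists, all in the 3′ UTR on chromosome 9. SLC44A2, a choline transporter, had 2.12, 2.01 and 1.92 after knockdown and 1.64, 2.35 and 1.64 in the control lists.

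**Figure D4:**
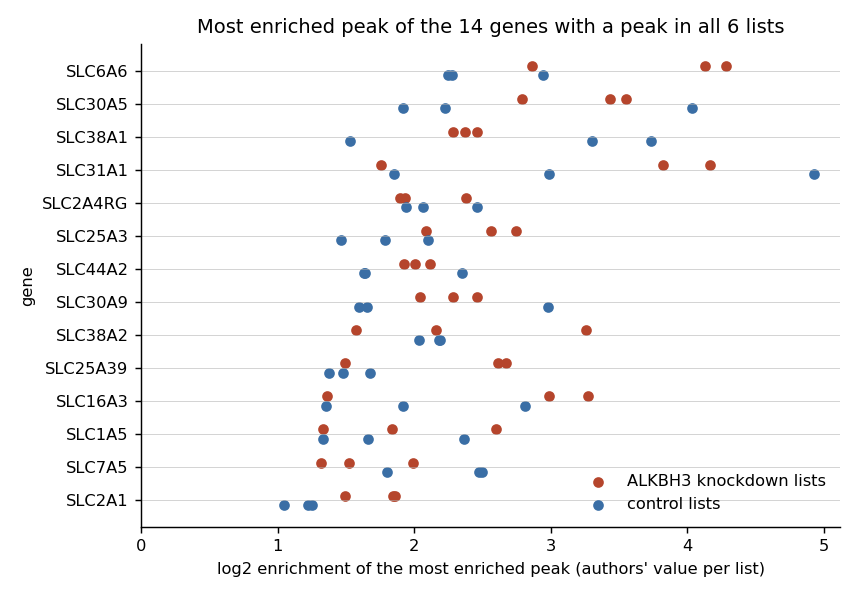
Log2 enrichment of the most enriched peak (horizontal axis, the authors' value in each list) of the 14 genes with a peak in all 6 lists, ordered by their lowest percentile within a list. Points are single lists, knockdown (red) above control (blue). SLC2A1, at the bottom, lies between 1.05 and 1.86, and SLC31A1 spreads widest, between 1.75 and 4.93. Lists differ in length and the values were not tested between groups.

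Most joined positions on solute carriers held a peak of 1 list alone, about as often as those over all genes. These are shares of positions, not of peaks, and a gene with a peak in 1 list only can give no shared position. Peaks from any list were joined where they had 1 base or more of an exon in common on 1 strand, which gave 806 positions on solute carriers, and 658 of them (81.6%) held a peak of 1 list alone, against 80.9% of all positions. A peak in all 6 lists was found at 6 positions (0.744%, where the share over all positions was 0.646%), 1 each on SLC1A5, SLC7A5, SLC16A3, SLC25A3, SLC25A39 and SLC2A4RG. None of the 6 lay in the 3′ UTR alone. Without control replicate 1 or control replicate 2, 12 positions held a peak in all 5 lists left, and the share over all positions was not counted there. With a reciprocal overlap of at least 50% as the rule for joining, 1 position held a peak of all 6 lists. The share over all positions was not counted for that rule either.

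At least 2 more knockdown than control lists had a peak at 28 positions on 22 genes (3.47%, where the share over all positions was 5.39%), and 12 of the 28 lay in the 3′ UTR alone. The reverse held for 13 positions on 9 genes (1.61%, where the share over all positions was 0.958%), and 12 of the 13 lay in the 3′ UTR alone. Regions were not counted for such positions of other genes, so these 3′ UTR counts have no background beside them. Over all peaks, the mean share in the 3′ UTR alone was already higher for the controls (53.8%) than after knockdown (34.4%). Whether solute carriers differ from other genes in this was not tested. Of the 22 genes recurrent in the knockdown lists, 3 had a position with at least 2 more knockdown lists. Examples called in each knockdown list but in no control list, chosen after their values were seen, were a position of SLC4A7, a sodium bicarbonate cotransporter, on chromosome 3 (27477933 to 27490145, minus strand, log2 enrichments 1.81, 2.42 and 1.80) and one of SLC25A23, an ATP-magnesium/phosphate carrier, on chromosome 19 (6441406 to 6441655, minus strand, 2.03, 1.85 and 1.68). On the control side, the 3′ UTR of SLC25A36 had 3 positions and SLC38A2 had 3, of which 1 lay in coding sequence.

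Peaks on solute carriers lay in the 3′ UTR more often than peaks on other genes in 5 of the 6 lists. The share of peaks in the 3′ UTR alone was 35.8%, 52.2% and 63.0% for solute carriers in knockdown replicates 1, 2 and 3, against 19.6%, 39.0% and 43.8% for all other peaks. In control replicates 2 and 3 it was 76.9% and 64.5% for solute carriers, against 59.2% and 44.0% for all other peaks. Control replicate 1 went the other way, with 43.0% for solute carriers (37 of 86 peaks) and 57.7% for all other peaks. In that list 6 of the 41 solute carrier peaks in coding sequence alone were on SLC38A2. The Wilson 95% intervals did not overlap in any list, but peaks of 1 gene are not independent, and the intervals cover counting error only. Taking only the most enriched peak of each gene, the shares were 36.8%, 54.2% and 64.5% in the knockdown lists, against 24.4%, 45.9% and 49.4% for other genes, and 42.9%, 75.5% and 66.0% in the control lists, against 58.6%, 64.4% and 51.6%. With 1 peak per gene the intervals overlapped in knockdown replicate 2 (44.2% to 63.8%, against 44.6% to 47.2%) and in control replicate 2 (62.4% to 85.1%, against 62.6% to 66.1%).

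**Figure D5:**
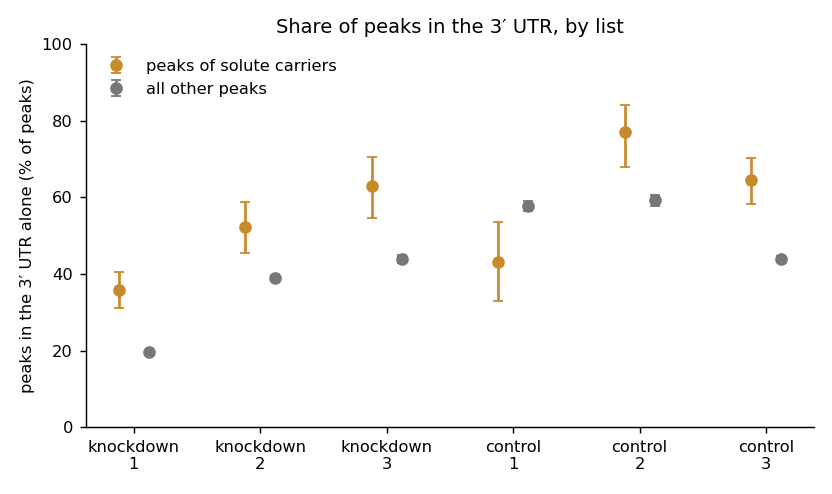
Peaks in the 3′ UTR alone as percent of all peaks of solute carriers (ochre) and of all other peaks (grey) in each list, knockdown left and control right. Bars are Wilson 95% intervals, which cover counting error only. Solute carriers are higher in 5 lists and lower in control replicate 1, at 43.0% against 57.7%.

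Between the groups, the share in the 3′ UTR alone averaged 50.3% ± 13.7 after knockdown and 61.5% ± 17.1 in the control lists for solute carriers (SD, n = 3 each), a difference of -11.2 percentage points that lay within the spread of the lists. For all other peaks the means were 34.1% ± 12.8 and 53.7% ± 8.40. The solute carrier difference was -3.88 points without knockdown replicate 1, -17.5 without knockdown replicate 3, -20.4 without control replicate 1 and -3.44 without control replicate 2. It was -5.16 at equal list length, and -6.29 when a peak counted if any of its transcripts gave the 3′ UTR. Over the 6 lists together, 49.8% of the peaks on SLC25 members lay in the 3′ UTR alone, 60.3% on SLC39, 69.6% on SLC30, 35.5% on SLC1, 73.0% on SLC7 and 62.0% on SLC38. Peaks of solute carriers had a median log2 enrichment of 2.14, 2.35 and 2.12 after knockdown and 1.66, 2.34 and 2.25 in the control lists. Other peaks had medians of 2.00, 2.29 and 2.11 after knockdown and 1.58, 2.25 and 2.07 in the control lists.

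Other membrane transport genes are given beside the shares over all genes, which were 20.1% for the knockdown group and 1.76% for the controls. Of 16 ABC transporters, pumps driven by ATP, 4 (25%) were recurrent in the knockdown group and 1 in the control lists. Of 21 P-type ATPases, which pump ions and flip lipids, 5 (23.8%) and 0 were recurrent, of 20 names of the vacuolar proton pump 3 (15%) and 1, and of 8 MFSD carriers 2 (25%) and 0. Of 23 partners and regulators of solute carriers, 19 had a peak in some list, with 3 recurrent in the knockdown group and 0 in the controls. The 3 were NEDD4L, a ubiquitin ligase of membrane transporters (log2 enrichments 2.40, 2.09 and 1.82 after knockdown and 3.59 in control replicate 3), STK39, the kinase SPAK that acts on cation-chloride cotransporters, and UNC93B1. BSG, the chaperone of the lactate carriers SLC16A1 and SLC16A3, and ATF4, a transcription factor that raises amino acid carriers under stress, had a peak in all 6 lists.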

How the data were processed

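The samples are 6 m1A immunoprecipitated and 6 input libraries. The labels' protocols give fragments of about 300 nt, an antibody against m1A, a stranded kit and reads of 150 nt. FastQC 0.11.7, Trimmomatic 0.32, HISAT2 2.1.0 and build hg19 are named per the submitters' processing notes. For each immunoprecipitated sample 1 list of peaks was deposited, and the peak caller is not given in the sources used here. Per the file headers the authors' enrichment is on the log2 scale, read here as IP over input since every value is above 0. Each peak's p-value and false discovery rate are as the authors deposited them. Transcript lengths and block numbers, another kind of value, are as deposited. Depth is unknown.

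Entries were collapsed to distinct peaks and printed counted from 1. A peak was placed in a region only where all its transcripts gave that region alone. The members and lists were chosen with earlier results of these data known, so no p is given over them. Genes named are those in all lists of one group and none of the other, the 8 with the highest lowest percentile and the 4 with most peaks among genes in all lists, recurrent members (up to 4 per family of SLC25, SLC39, SLC30, SLC1, SLC7 and SLC38, up to 8 in the rest), and well known members fixed by name. Further genes were named as part of a count or after their values were seen. The alternatives were at least 4-fold enrichment, equal list length, each list left out, a replicate block, names that are no carriers left out, peaks with 1 gene name, peaks per 1000 peaks of a list, and other rules of region, collapsing and overlap. The counting was tested on simulated data. Python 3.11.15, pandas 2.3.3 and scipy 1.17.1 were used.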

Additional observations from a re-analysis of the deposited data

How the results depend on the processing

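At equal list length the log2 ratio of solute carrier genes with a peak was 0.13, 16 genes were recurrent in the control lists (16 in the knockdown lists, 14 of them among the 22), 1 gene had a peak in every knockdown but no control list, 1 had more peaks in every knockdown list and no joined position held a peak in all 6 lists. That setting drops the weaker peaks of the longer lists by construction, for every gene, and the log2 ratio over all genes was not computed there. The list difference there (knockdown minus control) was -2 for SLC16A1. It was also -2 for SLC1A5, SLC7A5, SLC38A1, SLC25A39, SLC2A1, SLC44A2 and SLC2A4RG, which had a peak in all 6 lists without the cut. Among peaks with at least 4-fold enrichment 5 genes had more peaks in every knockdown list and 0 positions held a peak in all lists, while 30 genes were recurrent in the knockdown lists (18.9%, against 20.9% of all genes). Per 1000 peaks of a list, 1 gene had more peaks in every control list, against 2.43% of all genes. With a reciprocal overlap of 50%, 1 position was in all lists. Leaving out each list gave 6 to 55 genes recurrent in the knockdown lists, 0 to 11 in the control lists, 2 to 9 in every knockdown but no control list, 0 to 1 in the reverse, 4 to 21 with more peaks in every knockdown list, 0 to 3 with more in every control list, and 6 to 12 positions in all lists. With a list left out the shares over all genes were not counted. At equal list length and at least 4-fold enrichment they were not counted for genes with more peaks in every list. Shares over all positions were not counted for any of these alternatives. All those counts have no background beside them. The log2 ratio stayed between 0.43 and 0.90. Same-numbered lists correlated at -0.04, 0.08 and -0.12 in their deviations from the group means. Knockdown replicate 1 correlated at -0.15 with control replicate 2 and at 0.15 with control replicate 3. These values cannot tell whether same-numbered lists shared a culture or a batch, and the labels give only the number. A replicate block gives the same 22 and 2 recurrent genes and the same log2 ratio of 0.60 by construction, so it checks neither. The SD of its 3 differences was 0.81. None of the names that are no carriers, SLC7A6OS and SLC4A1AP included (chosen after the data were seen), was recurrent. Leaving them out therefore could not change the 22 and 2 recurrent genes. Depth is unknown, so a peak missing from a list may lie under its detection limit.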
